A study of Homo sapiens with 2 samples.

Results

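The genes described here are 10 epithelial genes, taken by name: the claudin genes CLDN4, CLDN6 and CLDN7, the tight junction genes OCLN and MARVELD2, the keratin genes KRT8 and KRT18, the splicing regulator genes ESRP1 and ESRP2, and the transcription factor gene GRHL2. All 10 were found by their NCBI gene numbers among the 18518 genes listed in the deposited tables. RNA was sequenced from 2 libraries, 1 from H1 cells labelled MEIS1-/- and 1 from wild-type H1, a human embryonic stem cell line. MEIS1 encodes a homeodomain transcription factor. Both cultures were taken at day 3 of induction towards blood, which per the labels used activin A at 40 ng/ml with BMP4 at 50 ng/ml for 2 days, then VEGF at 40 ng/ml with bFGF at 50 ng/ml for 2 days, each in Custom mTeSR1 medium. The labels gave no clone, no number of cultures and no description of the deleted part of MEIS1.

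Epithelial cells are sealed to their neighbours by tight junctions, in which claudins form the strands, occludin (OCLN) and tricellulin (MARVELD2) join them as MARVEL-domain proteins, and tricellulin sits where cells meet at corners. KRT8 and KRT18 pair with each other to build the intermediate filaments of simple epithelia. ESRP1 and ESRP2 are RNA-binding proteins that direct epithelial forms of splicing, and GRHL2 is a Grainyhead-type factor known to activate claudin and E-cadherin genes. Human embryonic stem cells are themselves epithelial, and cells that form mesoderm pass through an epithelial to mesenchymal transition in which such genes are typically turned down.

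The library labelled MEIS1 deleted held 5296431 counts over 17696 listed genes, and the wild-type library 5202877 counts over 17562. With 1 library per genotype there was no test between genotypes and no replicate check, so each difference compares these 2 libraries. Ratios are given as MEIS1 deleted over wild type, with an exact 95% interval that covers counting error only, and a gene is called higher or lower where that interval excluded 1. MEIS1 itself had 68 counts in the library labelled deleted and 89 in wild type, a ratio of 0.759 (0.543 to 1.05), and the files do not show which part of the gene was read. That level is no check of the genotype labels, so every direction given is that of a library as labelled.

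CLDN6, ESRP1 and GRHL2 were lower in the library labelled MEIS1 deleted, by 1.57- to 1.63-fold. KRT8 and KRT18, among the most abundant transcripts of both libraries, stayed within a few percent between them. The remaining 5 genes, CLDN4, CLDN7, OCLN, MARVELD2 and ESRP2, had ratios below 1 with intervals that included 1. In all, 3 of 10 genes were lower and 0 were higher, where 14.7% of all 14381 compared genes were lower and 15.4% were higher. All 10 passed the minimum of 10 counts in 1 library or more. The 3 lower genes were also at least 1.5-fold lower, as were 6.21% of compared genes, while 5.75% were at least 1.5-fold higher. The median log2 ratio of the 10 genes was -0.27, and that of all compared genes was 0.0032. Fewer epithelial cells and less RNA per epithelial cell cannot be told apart in RNA from whole cultures.

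**Figure D1:**
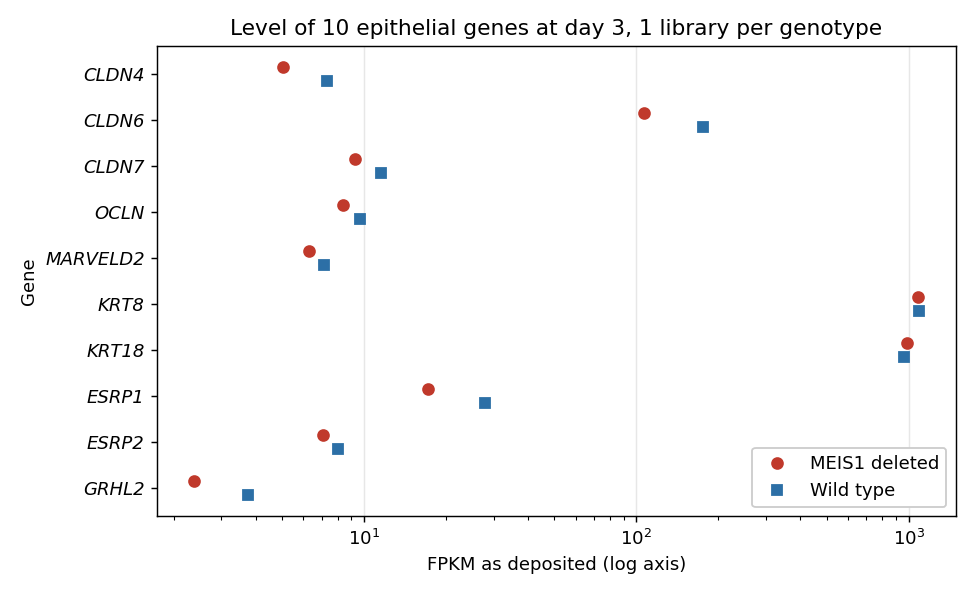
Deposited FPKM (horizontal log axis) of each of the 10 genes (rows) in the library labelled MEIS1 deleted (red circles) and in wild type (blue squares), 1 value per library. KRT8 and KRT18 lie near 1000 FPKM in both libraries, CLDN6 follows at 106.7 in the library labelled deleted and 175.8 in wild type, and GRHL2 is lowest at 2.37 in the library labelled deleted and 3.76 in wild type.

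CLDN6 was the most abundant claudin and, by its point estimate, the gene of the 10 with the largest difference. Claudin-6 is a claudin of embryonic epithelia and pluripotent cells. CLDN6 had 775 counts (106.7 FPKM) in the library labelled MEIS1 deleted and 1254 counts (175.8 FPKM) in wild type. That is a ratio of 0.612 (0.559 to 0.670), or 1.63-fold lower, a log2 ratio of -0.71 (-0.84 to -0.58). By FPKM, which is scaled for gene length and so allows genes to be compared, its level ranked 544th in the library labelled deleted and 284th in wild type.

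CLDN4 and CLDN7, claudins of many adult epithelia, were far less abundant. CLDN4 had 49 counts (5.03 FPKM) in the library labelled MEIS1 deleted and 70 (7.33 FPKM) in wild type, a ratio of 0.697 (0.471 to 1.01). CLDN7 had 74 counts (9.31 FPKM) in the library labelled deleted and 94 (11.57 FPKM) in wild type, a ratio of 0.781 (0.567 to 1.07). Both ratios were below 1, but at this depth neither could be told from 1, and both intervals overlapped that of CLDN6. Summed over the 3 claudins, the level was 121.0 FPKM in the library labelled deleted and 194.7 FPKM in wild type. CLDN6 made up 88.2% of that sum in the library labelled deleted and 90.3% in wild type. The ratio of CLDN7 to CLDN6 by FPKM was 0.0873 in the library labelled deleted and 0.0658 in wild type, and the change in that ratio, taken from counts, was 1.27 (0.914 to 1.77). For CLDN4 to CLDN6 the change was 1.13 (0.761 to 1.67), so a shift among the 3 claudins was not detectable.

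The start regions of the 3 claudin genes are shown as a description, because repressors and activators of epithelial genes are known to act at such regions. Whether these sequences bear on the claudin levels was not tested. The windows run from 250 bases before to 50 bases after a start site, from RefSeq on GRCh38.p14, and capitals mark CAGGTG or its reverse complement CACCTG, an E-box form bound by ZEB and SNAI repressors. They are CLDN4 at chr7:73830746-73831045 on the plus strand, CLDN6 at chr16:3018134-3018433 on the minus strand and CLDN7 at chr17:7262429-7262728 on the minus strand.
CLDN4: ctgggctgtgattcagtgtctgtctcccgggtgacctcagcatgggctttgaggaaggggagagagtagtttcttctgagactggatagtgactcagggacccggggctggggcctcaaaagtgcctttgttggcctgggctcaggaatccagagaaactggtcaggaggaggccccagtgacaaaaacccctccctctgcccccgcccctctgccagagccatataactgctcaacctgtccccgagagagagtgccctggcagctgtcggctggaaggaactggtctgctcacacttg
CLDN6: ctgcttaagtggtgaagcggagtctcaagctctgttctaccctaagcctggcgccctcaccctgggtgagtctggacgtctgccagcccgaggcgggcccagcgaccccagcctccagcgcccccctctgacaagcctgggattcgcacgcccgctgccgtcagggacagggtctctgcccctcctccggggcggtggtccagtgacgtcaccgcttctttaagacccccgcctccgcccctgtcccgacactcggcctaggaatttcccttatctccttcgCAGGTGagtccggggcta
CLDN7: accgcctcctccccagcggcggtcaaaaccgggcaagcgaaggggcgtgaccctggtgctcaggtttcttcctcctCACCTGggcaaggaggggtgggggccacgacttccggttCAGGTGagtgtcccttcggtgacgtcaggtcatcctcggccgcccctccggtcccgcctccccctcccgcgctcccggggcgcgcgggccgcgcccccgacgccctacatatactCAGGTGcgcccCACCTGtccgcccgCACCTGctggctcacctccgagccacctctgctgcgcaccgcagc
The CLDN7 window printed held 5 matches, and the second CLDN7 window, not printed, held 0. The CLDN6 window held 1, which lies in the 50 bases after the start, and the CLDN4 window 0. The 3 printed windows also differed in CpG content, with 5 CpG pairs in CLDN4, 21 in CLDN6 and 30 in CLDN7.

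RefSeq windows on chromosome 8 were left out before the search, so ESRP1 and GRHL2, which lie there, were not examined. Windows were found for 6 of the 10 genes, 8 windows in all because OCLN and CLDN7 had 2 start sites each. KRT18 and ESRP2 had none. Besides those printed, both OCLN windows held the E-box form, with 1 and 2 matches, and the windows of MARVELD2 and KRT8 and the second CLDN7 window held none. Of the 35116 promoter windows outside chromosome 8, 20.6% held the form on either strand. TGACAG, a core recognised by MEIS proteins, was found on either strand in 15.8% of those 35116 windows. Among the 8 windows of the genes described here, it was in the second CLDN7 window alone. AACCGGTT, the Grainyhead consensus, and its looser form AACNNGTT, which includes it, were each in 0 of the 8 windows. Their shares of the 35116 windows were 0.134% and 3.52%. Each reads the same on both strands. A match is only a run of letters, and its absence says nothing of sites elsewhere.

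OCLN and MARVELD2 were close in ratio to each other. OCLN had 271 counts (8.38 FPKM) in the library labelled MEIS1 deleted and 300 (9.69 FPKM) in wild type, a ratio of 0.894 (0.756 to 1.06). MARVELD2 had 76 counts (6.29 FPKM) in the library labelled deleted and 85 (7.13 FPKM) in wild type, a ratio of 0.886 (0.641 to 1.22). On counting error alone, the interval reaches 1.32-fold lower for OCLN and 1.56-fold lower for MARVELD2. The MARVELD2 level was 0.751 of that of OCLN in the library labelled deleted and 0.736 in wild type by FPKM, and the change in that ratio was 0.990 (0.686 to 1.43). OCLN shares sequence with the partial copy OCLNP1, which was itself listed with few reads, and with OCLNP1 added the sum was 274 counts in the library labelled deleted and 306 in wild type.

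**Figure D2:**
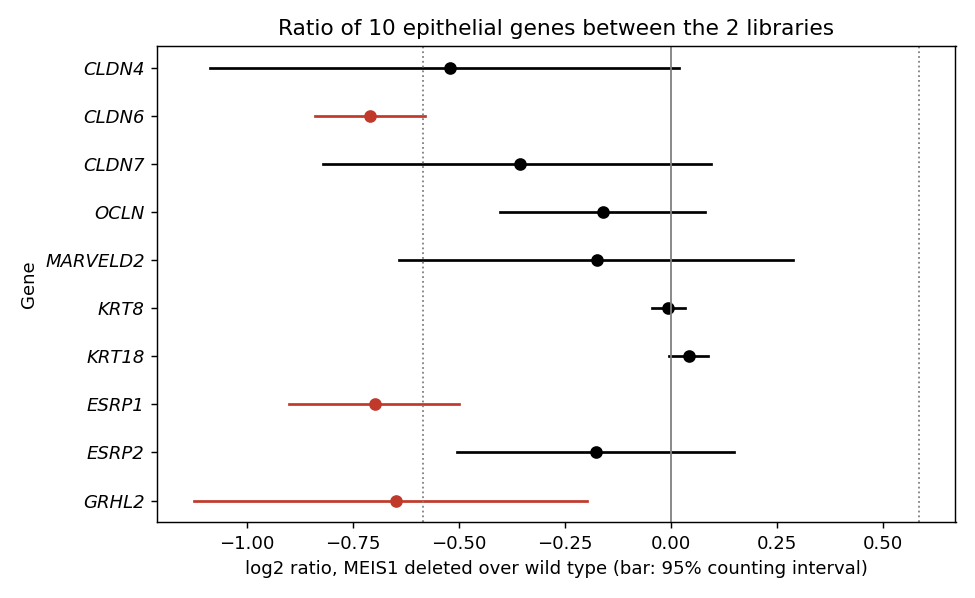
Log2 ratio of MEIS1 deleted over wild type (horizontal axis) for the 10 genes (rows), with points for the ratio and bars for the exact 95% counting interval. Red marks intervals that exclude a ratio of 1, dotted lines mark 1.5-fold in each direction, and CLDN6, ESRP1 and GRHL2 lie at -0.71, -0.70 and -0.65.

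KRT8 and KRT18 stood among the 25 highest genes of both libraries by FPKM. KRT8 had 10423 counts (1081.7 FPKM) in the library labelled MEIS1 deleted and 10362 (1094.2 FPKM) in wild type, a ratio of 0.996 (0.969 to 1.02). KRT18 had 7578 counts (982.7 FPKM) in the library labelled deleted and 7287 (961.9 FPKM) in wild type, a ratio of 1.03 (0.997 to 1.06). Together they took 0.340% of counts in the library labelled deleted (exact 95% binomial interval 0.335 to 0.345) and 0.339% in wild type (0.334 to 0.344). Their depth makes these ratios the most precise of the 10 in counting error. On that error alone, the KRT8 interval reaches 1.03-fold lower. With libraries scaled by DESeq2 size factors, which were equal for the 2 libraries, the KRT18 interval lay above 1 (1.01 to 1.07).

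The partner keratins also kept their proportion. KRT8 stood at 1.10 times KRT18 by FPKM in the library labelled MEIS1 deleted and at 1.14 times in wild type, a change of 0.967 (0.927 to 1.01). The genes lie next to each other on chromosome 12 and overlap in RefSeq, and the labels do not state whether the kit or the counting kept strand, so reads from the overlap cannot be told apart. Many processed copies of both genes exist in the genome, and of these KRT8P41 and KRT18P55 were listed, with 2 counts each in the library labelled deleted and 0 each in wild type.

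The ESRP genes differed in their ratios. ESRP1 had 333 counts (17.22 FPKM) in the library labelled MEIS1 deleted and 535 (27.78 FPKM) in wild type, a ratio of 0.617 (0.536 to 0.708), or 1.62-fold lower. ESRP2 had 151 counts (7.06 FPKM) in the library labelled deleted and 169 (8.04 FPKM) in wild type, a ratio of 0.885 (0.705 to 1.11). ESRP1 was the more abundant paralog in both libraries, at 2.44 times ESRP2 by FPKM in the library labelled deleted and 3.46 times in wild type. The change in that proportion was 0.697 (0.534 to 0.910), the one interval that excluded 1 among 6 gene pairs compared. These intervals were not adjusted for the 6 pairs.

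GRHL2 was the least abundant of the 10 genes. It had 66 counts (2.37 FPKM) in the library labelled MEIS1 deleted and 103 (3.76 FPKM) in wild type, a ratio of 0.638 (0.458 to 0.872), or 1.57-fold lower. Its interval was much wider than those of CLDN6 and ESRP1 and overlapped both. On the log2(FPKM + 1) scale, which shrinks the differences of low genes, GRHL2 no longer reached 1.5-fold, with a log2 ratio of -0.50.

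**Figure D3:**
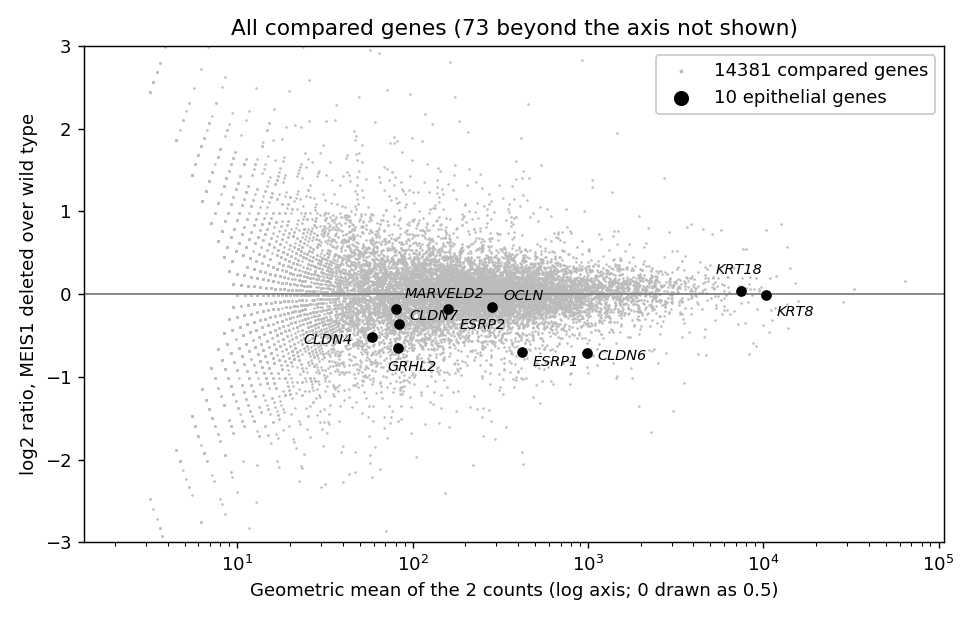
Log2 ratio of MEIS1 deleted over wild type (vertical axis) against the geometric mean of the 2 counts (horizontal log axis) for 14381 compared genes (grey) and the 10 epithelial genes (black), with 73 genes beyond the axis not shown. The keratin genes lie near 0 at the far right, and CLDN6 and ESRP1 lie near -0.7.

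Other genes of the same pathways were compared by lists. Of 21 other claudin genes 15 were listed and 10 compared, of which 1 was higher, 2 were lower and 7 had intervals that included 1, with a median log2 ratio of -0.019. CLDN11, the claudin of myelin and testis, had 395 counts (28.33 FPKM) in the library labelled MEIS1 deleted and 470 (34.67 FPKM) in wild type, a ratio of 0.832 (0.726 to 0.953). CLDN12 had a ratio of 0.805 (0.684 to 0.947), and CLDN10 a ratio of 1.04 (0.709 to 1.54). The higher gene was CLDN16, a kidney claudin named after its values were seen, with 13 counts in the library labelled deleted and 3 in wild type. Over all 18 listed claudins CLDN6 made up 59.7% of summed FPKM in the library labelled deleted and 66.9% in wild type. CLDN5, the main endothelial claudin, was listed in neither library.

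Among 24 compared genes of tight junction scaffolds, adhesion molecules and polarity proteins, 8 were lower, 3 were higher and 13 had intervals that included 1 (median -0.15). LSR, which encodes angulin-1, the protein that brings tricellulin to cell corners, had 200 counts in the library labelled MEIS1 deleted and 314 in wild type, a ratio of 0.632 (0.525 to 0.755). The polarity scaffold gene PATJ had a ratio of 0.697 (0.590 to 0.821) and MAGI1 a ratio of 0.710 (0.619 to 0.811). JAM3, an adhesion gene also used by endothelial cells, went the other way, with 775 counts in the library labelled deleted and 493 in wild type, a ratio of 1.55 (1.39 to 1.75). Its relative JAM2 was also higher, with a ratio of 1.83 (1.14 to 3.13). TJP1, which encodes the scaffold ZO-1, had 1848 counts in the library labelled deleted and 1892 in wild type and an interval that included 1. JAM2 and TJP1 were chosen after their values were seen.

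Of 5 compared genes among the other keratins and the plakins that anchor them, 3 were higher, 1 was lower and 1 had an interval that included 1 (median 0.13). KRT19, a further simple-epithelial keratin, had 1529 counts (195.9 FPKM) in the library labelled MEIS1 deleted and 1366 (178.2 FPKM) in wild type, a ratio of 1.11 (1.03 to 1.19). The desmosomal anchor gene DSP had a ratio of 1.06 (1.02 to 1.11), the plectin gene PLEC a ratio of 1.09 (1.03 to 1.17), and the periplakin gene PPL a ratio of 0.682 (0.506 to 0.909). KRT5, KRT6A and KRT20, keratins of stratified or intestinal epithelium, were listed in neither library.

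Of 17 compared epithelial adhesion and surface genes 8 were lower, 1 was higher and 8 had intervals that included 1 (median -0.20). CDH3 (P-cadherin) had 482 counts in the library labelled MEIS1 deleted and 760 in wild type, a ratio of 0.628 (0.559 to 0.704). PRSS8, a membrane-anchored serine protease of epithelia, had a ratio of 0.619 (0.531 to 0.718), and EPCAM, an epithelial surface protein, a ratio of 0.797 (0.734 to 0.864). The higher gene was PKP2, a desmosomal plaque gene, with a ratio of 1.23 (1.11 to 1.37). CDH1 (E-cadherin) had 837 counts in the library labelled deleted and 857 in wild type, and its interval included 1. PKP2 and CDH1 were chosen after their values were seen.

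Epithelial transcription factor genes other than GRHL2 had the lowest median of the epithelial lists, at -0.42, with 4 of 11 lower and 0 higher. GRHL3, a relative of GRHL2, had 51 counts (3.36 FPKM) in the library labelled MEIS1 deleted and 146 (9.88 FPKM) in wild type, a ratio of 0.350 (0.246 to 0.479). TFAP2C, an AP-2 factor, had a ratio of 0.490 (0.424 to 0.563) and TFAP2A a ratio of 0.696 (0.593 to 0.814). GRHL1 had 29 counts in the library labelled deleted and 26 in wild type, and its interval included 1. GRHL1 was chosen after its values were seen.

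Splicing regulators other than the ESRP genes went both ways, with 5 of 16 higher, 5 lower and 6 whose intervals included 1 (median -0.073). The muscleblind genes, whose proteins regulate splicing during differentiation, differed among themselves. MBNL1 had 258 counts in the library labelled MEIS1 deleted and 143 in wild type, a ratio of 1.78 (1.45 to 2.21), and MBNL2 a ratio of 1.44 (1.21 to 1.74). MBNL3 had 319 counts in the library labelled deleted and 490 in wild type, a ratio of 0.645 (0.558 to 0.743). The other higher genes had ratios close to 1: QKI (1.07), HNRNPM (1.07) and SRSF1 (1.06). The other lower ones were RBFOX1 (0.360), PTBP1 (0.933), PTBP2 (0.842) and CELF1 (0.839). RBFOX1 had only 15 counts in the library labelled deleted and 43 in wild type. Of these other genes, all but CELF1 were named after their values were seen.

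Genes whose exons are known to be chosen by ESRP proteins were compared only in their total counts, since the files gave 1 value per gene and no exon or isoform counts. Of 8, 2 were higher, 3 were lower and 3 had intervals that included 1 (median -0.061). CD44, a hyaluronan receptor, had 839 counts (34.29 FPKM) in the library labelled MEIS1 deleted and 407 (16.81 FPKM) in wild type, a ratio of 2.04 (1.81 to 2.30). FGFR2, an FGF receptor with epithelial and mesenchymal forms, had 485 counts in the library labelled deleted and 298 in wild type, a ratio of 1.61 (1.39 to 1.87). The lower genes were CTNND1, ARHGEF11, with a ratio of 0.810 (0.697 to 0.941), and EXOC7, with 0.867 (0.773 to 0.971), the last chosen after its values were seen. CTNND1 (p120 catenin) had a log2 ratio of -0.49, but it shares reads with the readthrough gene TMX2-CTNND1, and the sum of both gave -0.28, an alternative added after the values were seen.

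The tables also gave 1 length per gene and library, which for genes with several transcripts could differ between libraries. The length of ESRP1, with several listed transcripts, was 3639 bases in the library labelled MEIS1 deleted and 3688 in wild type. That of OCLN was 6055 bases in the library labelled deleted and 5913 in wild type, and that of CLDN7 1517 bases in the library labelled deleted and 1577 in wild type. For FGFR2 the length was 3790 bases in the library labelled deleted and 3614 in wild type. The lengths carry no error and were not compared further.

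**Figure D4:**
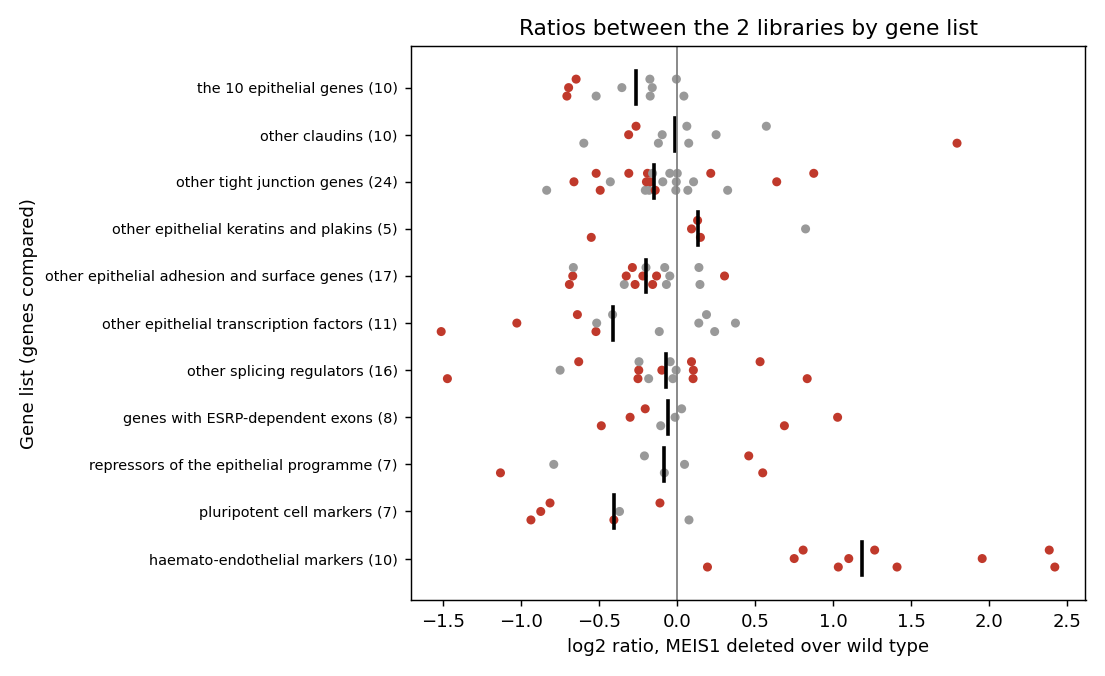
Log2 ratio of MEIS1 deleted over wild type (horizontal axis) of each compared gene in 11 lists (rows, with the number of genes compared), where red points have a counting interval that excludes a ratio of 1, grey points do not and black lines are medians. The medians of the 10 epithelial genes and of the other epithelial transcription factors lie at -0.27 and -0.42, and that of the haemato-endothelial markers at 1.18.

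Repressors of the epithelial programme were not uniform. ZEB2 had 1239 counts in the library labelled MEIS1 deleted and 839 in wild type, a ratio of 1.46 (1.34 to 1.60), and SNAI2 (Slug) a ratio of 1.37 (1.23 to 1.54). SNAI1 (Snail) had 57 counts in the library labelled deleted and 125 in wild type, a ratio of 0.456 (0.324 to 0.622), and ZEB1 had an interval that included 1 (0.648 to 1.15). Of 7 compared, 2 were higher, 1 was lower and 4 had intervals that included 1 (median -0.084).

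Markers of the other cell types in such cultures differed beside these genes, and their part in the results above was not tested. Of 7 compared pluripotent cell markers 5 were lower (POU5F1, NANOG, CRIPTO, DPPA4 and LIN28A) and 0 were higher. The summed level of those listed was 620.5 FPKM in the library labelled MEIS1 deleted and 807.9 FPKM in wild type. LIN28A alone held 339.6 FPKM in the library labelled deleted and 369.8 FPKM in wild type, with a ratio of 0.925. POU5F1, a core pluripotency factor, had a ratio of 0.568 (0.513 to 0.628). All 10 haemato-endothelial markers were higher, with 348.4 FPKM in the library labelled deleted and 224.3 FPKM in wild type. KDR alone held 160.4 FPKM in the library labelled deleted and 141.5 FPKM in wild type. Of 12 mesenchymal genes 7 were higher and 2, CDH2 and TAGLN, were lower, with 4156 FPKM in the library labelled deleted and 3613 FPKM in wild type. In those sums FN1 had 1464 FPKM and VIM 1415 FPKM in the library labelled deleted, and 1320 and 1142 FPKM in wild type. Of 9 compared definitive endoderm markers 2, SOX17 and CXCR4, were lower and 0 were higher, with 141.3 FPKM in the library labelled deleted and 177.7 FPKM in wild type. Of 7 compared markers of amnion and trophoblast, whose cells also carry KRT8 and KRT18, 5 were higher (GABRP, VTCN1, IGFBP3, HEY1 and HAND1). ISL1 and GATA3 were lower. The other 3 listed, CGA, GCM1 and ELF5, stayed below the minimum count and were not compared. The summed level of all listed amnion and trophoblast markers was 424.8 FPKM in the library labelled deleted and 333.9 FPKM in wild type. HAND1 alone held most of each sum, with 300.9 FPKM in the library labelled deleted and 253.65 FPKM in wild type. Neural and surface ectoderm markers summed to 15.57 FPKM in the library labelled deleted and 25.79 FPKM in wild type, 1 of 4 compared, OTX2, was lower, and SOX1 and KRT5 were listed in neither library. LIN28A, KDR, FN1, VIM, CDH2, TAGLN, VTCN1, HAND1, GATA3, CGA, GCM1 and ELF5 were named after their values were seen.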

How the data were processed

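RNA was sequenced from 2 libraries, 1 per genotype, each built with the Illumina TruSeq RNA Sample Prep Kit from 2 ug of RNA, per the labels' protocols. The authors deposited expected counts, which are estimated counts per gene and need not be whole, without scaling, and FPKM values scaled for gene length and depth, per the file headers. The deposited gene length, which the unit table records as another kind of value, is in bases per the file headers. BWA, Bowtie, RSEM and hg19 were named without versions in the submitters' processing notes, and the design text named TopHat and Cufflinks as well. The order of these steps is not given in the sources used here.

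Expected counts were rounded to whole numbers, and genes absent from a table were taken as 0. Symbols came from a RefSeq table of GRCh38.p14, which matched 18413 of 18518 gene numbers, and its coordinates were used for the RefSeq promoter windows alone. Counts were scaled by TMM (edgeR 4.0.16, R 4.3.3), with effective library sizes in a ratio of 1.01. The comparison took in each gene that reached 10 counts in either library. Log2 ratios and point ratios used a pseudocount of 1, and intervals were exact Clopper-Pearson 95% intervals conditional on the summed counts, without a pseudocount (SciPy 1.17.1). A change in the proportion of a gene pair is a conditional odds ratio of counts. No model was fitted and no test between genotypes was run, since there was 1 library per genotype. The computation was tested on simulated counts. The 10 genes and all lists were chosen with earlier results of these data known. From each other list up to 4 genes with the largest absolute log2 ratios among genes with at least 50 counts could be named, and others are marked as chosen after their values were seen. Some list genes are counted but not reported here by name. With 2 libraries no genes were ranked by likeness of pattern. Alternatives were total counts, DESeq2 1.42.0 size factors, other minimum counts, a pseudocount of 0.5, log2(FPKM + 1), a 2-fold threshold and sums with pseudogenes. Expected counts of ESRP1, ESRP2, GRHL2 and CLDN7 were whole within 0.005 in both libraries, and those of the other 6 genes were not, so those 6 shared some reads with other genes. A count of 0 allows up to 3 counts in a library. Intervals and this floor describe counting error alone, because there was 1 library per genotype. They may be too narrow even for that, because PCR copies are not separate molecules.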

Additional observations from a re-analysis of the deposited data

How the results depend on the processing

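Each of the 10 log2 ratios stayed within its own counting interval in all 43 values computed under another scaling, a pseudocount of 0.5, log2(FPKM + 1) or a sum with pseudogenes, and none reversed a called direction. Total counts and DESeq2 size factors shift all 10 log2 ratios by the same amount. For KRT8, whose interval was narrowest (-0.046 to 0.033), they gave -0.017 and 0.0085. Those 2 scalings could therefore not move a gene out of its interval. The count of lower genes among the 10 stayed at 3 under total counts and DESeq2 size factors, and the median of the 10 stayed between -0.28 and -0.24. The minimum count could not change these values, because each of the 10 genes reached 50 counts in a library, and the intervals use no pseudocount. With DESeq2 size factors, which were both 1 and so left the counts unscaled, 1 of the 10, KRT18, was higher. Under total counts 0 of the 10 were higher. At a 2-fold threshold 0 of the 10 were lower, and 417 and 424 of all genes were higher and lower, against 827 and 893 at 1.5-fold. A minimum of 50 counts left 506 and 587 genes at 1.5-fold, where fewer genes were compared. From FPKM 2 of the 10 were at least 1.5-fold lower, and no interval was available there. The added sum of CTNND1 with its readthrough gene moved the CTNND1 log2 ratio to -0.28. Depth limits CLDN4, CLDN7, MARVELD2 and GRHL2, which had between 49 and 103 counts per library. No paired analysis was possible because each genotype had 1 library.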
